A study of Rattus norvegicus with 2 samples.

Results

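The 10 genes described here carry the transforming growth factor beta (TGF-beta) signal in the vessel wall: the ligands Tgfb1, Tgfb2 and Tgfb3, the latency protein Ltbp1, the receptors Tgfbr1, Tgfbr2 and Tgfbr3, the signal transducer Smad3, its inhibitor Smad7 and the target Tgfbi. They were chosen by name, and all 10 were listed among the 32623 genes counted. Each was read in marker-gated cell classes of 2 single-cell libraries of the rat carotid artery. The control group was the untreated left carotid arteries, and the case group was the right carotid arteries of the same 2 male SD rats, 28 days after balloon injury. Arteries of the 2 rats were pooled in each library, and the labels give an age of 12 weeks for both. No transgene or drug treatment was part of the comparison, and the surgery was done under pentobarbital anaesthesia. The normal artery was thus the opposite artery of an operated animal. Balloon injury strips the endothelium and stretches the media, and serves as a model of the stenosis that follows vessel dilation.

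TGF-beta ligands are secreted in a latent complex, in which Ltbp1 ties them to the extracellular matrix, and have to be activated there before they bind cells. The active ligand binds Tgfbr2, which recruits and phosphorylates Tgfbr1, and Tgfbr3 (betaglycan) presents the ligand, above all the form encoded by Tgfb2. Tgfbr1 phosphorylates Smad2 and Smad3, which enter the nucleus with Smad4. Smad7 is induced by the signal and blocks the receptors, and Tgfbi encodes a secreted matrix protein first found as a TGF-beta induced gene. In arteries the pathway is known for matrix synthesis and for the contractile state of vascular smooth muscle cells (VSMCs).

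After quality control 2718 of 3321 control barcodes and 4913 of 5656 case barcodes were kept, with a median of 8667 and 5133 unique molecular identifiers (UMIs) per cell. Fewer than 2000 UMIs were held by 760 kept control and 324 kept case barcodes. The libraries shared 21 barcode sequences in all and 9 among kept cells. Cells were assigned by markers to VSMC-like (1339 control and 2569 case cells), fibroblast-like (700 and 1424), endothelial-like (56 and 230), macrophage-like (47 and 109) and Schwann-like (22 and 55) classes. Cells with both VSMC and fibroblast markers formed a mixed-marker class (232 and 206), and 321 control and 318 case cells had no class. All 8 endothelial markers present in the files, all 9 macrophage markers and all 6 Schwann markers were detected in the class gated on them in both libraries, but the endothelial marker Kdr had 4 UMIs in control endothelial-like and 25 in control macrophage-like cells. RNA of the abundant cells was found in the others. The summed VSMC markers of macrophage-like cells stood at 10.6% (control) and 8.96% (case) of the VSMC-like level. These sums were 2614 and 1761 CPM, while the median macrophage-like cell held 762 and 487 CPM and the highest 23146 and 15830 CPM. Fibroblast markers in VSMC-like cells stood at 2.82% and 2.78% of the fibroblast-like level.

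With 1 library per group there were no replicates, so no test of case against control was possible. A level is the number of UMIs of a gene per 1000000 UMIs of its class (CPM), with all cells of the class summed. Parentheses hold exact 95% Poisson intervals of levels and ratios, which cover counting error alone and not the spread between rats. A ratio of case over control was read where a gene had at least 50 UMIs over both libraries, and was called past the fold at 1.5-fold or more in either direction.

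The upstream sequences of the 3 ligands and of Ltbp1 are shown because these genes divided the cell classes between them, with Tgfb1 highest in macrophage-like, Tgfb2 in fibroblast-like and Tgfb3 together with Ltbp1 in VSMC-like cells. Each line gives the 250 bases before the annotated start, 5′ to 3′ on the gene's strand, from RefSeq on the GRCr8 build, where all 10 genes were matched by symbol. Tgfb1 lies at chr1:90324062-90324311 (plus strand), Tgfb2 at chr13:100792686-100792935 (minus), Tgfb3 at chr6:111456947-111457196 (minus) and Ltbp1 at chr6:26177302-26177551 (minus). Capitals mark an E-box (CACGTG) in Tgfb2 and, in Ltbp1, a cyclic AMP response element (CRE, TGACGTCA) and CCAAT boxes (CCAAT, or ATTGG on the other strand).
Tgfb1: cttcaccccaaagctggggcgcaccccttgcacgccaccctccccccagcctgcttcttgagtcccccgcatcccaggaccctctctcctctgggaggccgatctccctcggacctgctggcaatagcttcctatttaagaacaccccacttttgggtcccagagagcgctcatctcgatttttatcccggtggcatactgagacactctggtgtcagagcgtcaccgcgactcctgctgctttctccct
Tgfb2: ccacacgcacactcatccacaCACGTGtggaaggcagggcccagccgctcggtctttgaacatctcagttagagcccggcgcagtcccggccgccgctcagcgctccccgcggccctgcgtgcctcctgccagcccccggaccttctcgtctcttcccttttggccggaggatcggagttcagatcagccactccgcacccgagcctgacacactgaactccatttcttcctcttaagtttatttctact
Tgfb3: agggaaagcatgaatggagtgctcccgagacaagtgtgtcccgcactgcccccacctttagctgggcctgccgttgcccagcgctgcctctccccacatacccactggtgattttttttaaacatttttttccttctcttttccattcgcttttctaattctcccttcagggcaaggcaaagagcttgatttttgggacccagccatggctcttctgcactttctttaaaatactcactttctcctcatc
Ltbp1: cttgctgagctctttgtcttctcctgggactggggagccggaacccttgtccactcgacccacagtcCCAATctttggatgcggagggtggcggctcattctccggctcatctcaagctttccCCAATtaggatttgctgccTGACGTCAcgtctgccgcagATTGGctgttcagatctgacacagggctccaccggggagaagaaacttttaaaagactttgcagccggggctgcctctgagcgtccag
Both strands were searched for each motif, and no motif searched overlapped another in these windows. Ltbp1 held a CRE 108 bases before the start, a motif found in 1.59% of the 33469 promoter windows in the reference, and CCAAT boxes 88, 127 and 183 bases before it. The CCAAT letters were in 34.0% of all windows and, among the other members, in those of Tgfbr1 and Tgfbr2. Tgfb2 held the E-box 229 bases before its start, against 5.59% of all windows. A GC box (GGGCGG) was found in 30.5% of all windows and in 6 members, Smad3, Smad7, Tgfbi, Tgfbr1, Tgfbr2 and Tgfbr3. The palindrome bound by SMAD proteins (GTCTAGAC, 0.173% of all windows) and the AP-1 site (TGACTCA, 4.05%) were in 0 of the 10 windows. None of the 6 motifs was found in the window of Tgfb3. Whether any of these motifs bears on the levels in the cell classes was not tested.

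**Figure D1:**
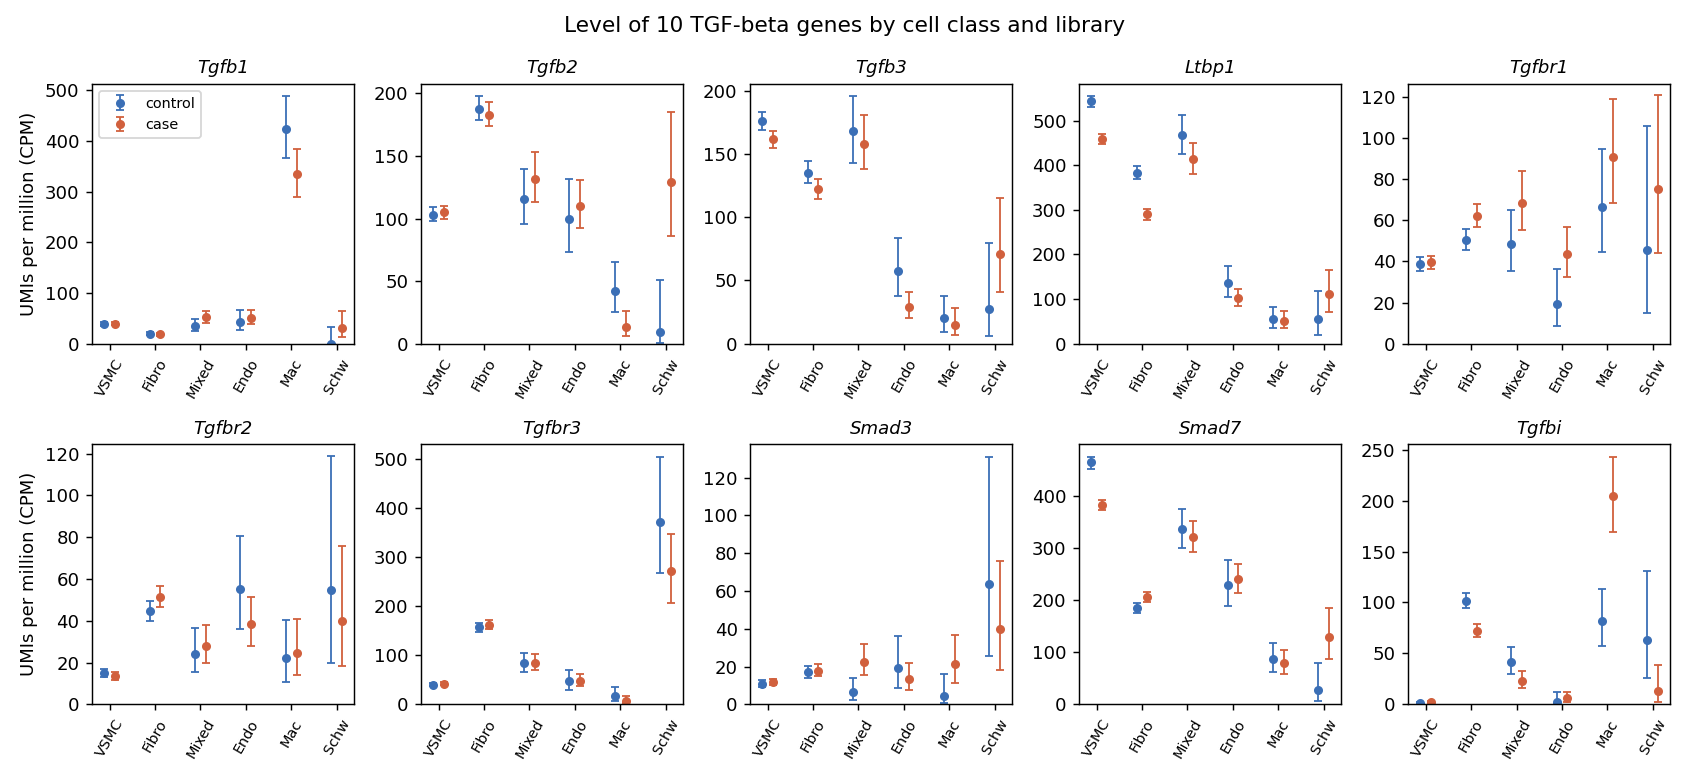
Level of each of the 10 genes (CPM, linear axis from 0) in 6 marker-gated cell classes, with control (blue) and case (orange) libraries as points and exact 95% Poisson intervals as bars. Tgfb1 stands at 424 and 335 CPM in macrophage-like cells (Mac) and at most at 51.8 CPM in any other class, and Tgfb3, Ltbp1 and Smad7 are highest in VSMC-like cells (VSMC) in both libraries.

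Tgfb1, the ligand known for immune regulation and fibrosis, had its highest level in macrophage-like cells. It measured 424 CPM (366 to 489) in control and 335 CPM (290 to 384) in case macrophage-like cells. The next class in the control group was endothelial-like, at 42.4 CPM (25.9 to 65.4), 10.0-fold lower. In the case group it was the mixed-marker class at 51.8 CPM (40.4 to 65.3), 6.46-fold lower. The macrophage-like intervals therefore stood clear of every other class in both libraries. VSMC-like cells held 38.7 and 39.5 CPM and fibroblast-like cells 19.0 and 18.4 CPM. The order between VSMC-like and endothelial-like cells was not resolved in either library, as the intervals of their ratio included 1. Where cells were thinned, each was brought to 2000 UMIs and cells with fewer were left out, while unthinned shares cover all cells. After thinning, Tgfb1 was detected in 52.2% (36.9 to 67.1, exact binomial) of control and 44.2% (34.5 to 54.3) of case macrophage-like cells, against 2.86% and 3.23% of fibroblast-like cells. Unthinned, these shares were 80.9% and 72.5% against 15.4% and 8.36%, at median depths of 9348 and 5124 UMIs in macrophage-like and 10881 and 5122 in fibroblast-like cells. Macrophage-like cells were few, and VSMC-like cells gave more Tgfb1 UMIs in all, with 505 in the control and 580 in the case group against 192 and 202.

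Tgfb2, the ligand that depends most on betaglycan, was highest in fibroblast-like cells, at 188 CPM (179 to 198) in the control and 183 CPM (174 to 193) in the case group. VSMC-like cells stood at 103 and 105 CPM, so that the fibroblast-like level was 1.83-fold (1.69 to 1.97) and 1.75-fold (1.63 to 1.88) higher. Endothelial-like cells held 99.6 CPM (73.2 to 132) and 110 CPM (92.2 to 131), not distinguishable from VSMC-like cells in either library. Macrophage-like cells were low in Tgfb2, at 42.0 and 13.3 CPM from 19 and 8 UMIs. In Schwann-like cells 1 UMI was counted in the control and 29 in the case group, where VSMC markers stood at 4.99% and 16.7% of the VSMC-like level; the part of RNA from other cells in this value was not tested.

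Tgfb3 showed the opposite slope between the abundant classes. It reached 176 CPM (169 to 183) in control and 162 CPM (155 to 168) in case VSMC-like cells, against 135 CPM (127 to 144) and 122 CPM (114 to 130) in fibroblast-like cells. Mixed-marker cells, at 168 and 158 CPM, could not be told apart from VSMC-like cells. Endothelial-like cells stood lower, at 57.2 and 29.2 CPM, and macrophage-like cells at 19.9 and 14.9 CPM, the latter from 9 UMIs in each library. The macrophage-like level was 11.3% and 9.21% of the VSMC-like one, close to the shares at which VSMC markers were found there. Without the 4 control and 12 case macrophage-like cells with over 0.5% of VSMC and fibroblast marker UMIs, Tgfb3 was at 8.02 and 4.00 CPM. The part of RNA from other cells in these values was not tested.

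Ltbp1, which stores the latent ligands in the matrix, had the same order as Tgfb3 over VSMC-like, mixed-marker and fibroblast-like cells. The VSMC-like level was 543 CPM (530 to 556) in the control and 459 CPM (448 to 470) in the case group. Fibroblast-like cells held 383 CPM (370 to 398) and 290 CPM (278 to 302). All neighbouring steps from VSMC-like through mixed-marker to fibroblast-like cells lay outside counting error in both libraries. The mixed-marker class was gated on both marker lists. Its VSMC markers stood at 46.1% and 46.5% of the VSMC-like level and its fibroblast markers at 41.3% and 38.7% of the fibroblast-like level. An intermediate level can thus come from the gate or from doublets, which was not tested. The median depth of control mixed-marker cells was 1359 UMIs, against 10926 in VSMC-like and 10881 in fibroblast-like cells. In the case group it was 5384, against 5450 and 5122. The part of RNA from other cells in the shallow control barcodes was not tested either. Thinning left out 304 control and 81 case VSMC-like cells. Of the VSMC-like cells that remained, 64.4% in the control and 56.6% in the case group had an Ltbp1 UMI. In macrophage-like cells the thinned shares were 0% (0 to 7.71) and 4.81% (1.58 to 10.9). The unthinned shares were 81.1% and 83.4% against 21.3% and 11.9%, at median depths of 10926 and 5450 UMIs in VSMC-like cells. The macrophage-like level of Ltbp1, 10.2% and 11.2% of the VSMC-like one, was again close to that of the VSMC markers.

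The receptors were read at low levels and were spread over the classes. Tgfbr1, the signalling kinase, measured 38.9 CPM (35.6 to 42.4) and 39.5 CPM (36.3 to 42.8) in VSMC-like, 50.6 and 62.3 CPM in fibroblast-like, and 66.3 and 91.1 CPM in macrophage-like cells. Macrophage-like cells were first in both libraries, but the step to the next class was within counting error in each. Tgfbr2, which binds the ligand first, was lowest in VSMC-like cells, at 14.9 CPM (12.9 to 17.1) and 13.6 CPM (11.8 to 15.7), though in the control group the step to macrophage-like cells was within counting error. Fibroblast-like cells held 44.6 CPM (40.0 to 49.6) and 51.3 CPM (46.4 to 56.6) of it. The highest class for Tgfbr2 was endothelial-like in the control group (55.1 CPM) and fibroblast-like in the case group, and neither was clear of its neighbour.

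Tgfbr3, the co-receptor betaglycan, had a clearer pattern. Schwann-like cells held 372 CPM (267 to 505) in the control and 271 CPM (207 to 347) in the case group, from 41 and 61 UMIs. Fibroblast-like cells came next with 157 CPM (148 to 166) and 162 CPM (154 to 172), 2.38-fold and 1.67-fold below the Schwann-like level. VSMC-like cells, at 39.9 and 42.3 CPM, lay 3.93-fold (3.54 to 4.37) and 3.84-fold (3.49 to 4.24) under fibroblast-like cells. The class with the highest Tgfb2 among the 4 main ones was thus also the class with the highest Tgfbr3, in both libraries. Thinned shares of cells with Tgfbr3 were 47.1% (23.0 to 72.2) and 38.6% (24.4 to 54.5) in Schwann-like cells and 0% (0 to 7.71) and 0% (0 to 3.48) in macrophage-like cells. The Schwann-like shares rested on the 17 control and 44 case cells deep enough to be thinned. Unthinned, they were 50.0% and 47.3% against 12.8% and 2.75%, at Schwann-like median depths of 4728 and 3376 UMIs.

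Smad3, the receptor-activated transducer, was among the lowest counts, and was higher in fibroblast-like than in VSMC-like cells in both libraries, by 1.58-fold (1.23 to 2.02) and 1.52-fold (1.21 to 1.92). It measured 10.8 CPM (9.10 to 12.7) and 11.7 CPM (10.0 to 13.6) in VSMC-like and 17.1 CPM (14.2 to 20.2) and 17.9 CPM (15.0 to 21.1) in fibroblast-like cells. Schwann-like cells had the highest values, 63.6 and 39.9 CPM, from 7 and 9 UMIs. Smad7, the feedback inhibitor, was in contrast well counted, with 464 CPM (452 to 475) in control and 382 CPM (372 to 392) in case VSMC-like cells. It stood at 185 CPM (175 to 195) and 206 CPM (196 to 216) in fibroblast-like, 229 and 240 CPM in endothelial-like and 86.2 and 79.5 CPM in macrophage-like cells. In both libraries the order VSMC-like, mixed-marker, endothelial-like, fibroblast-like held with each step outside counting error. The place of mixed-marker cells in this order has the same limit as for Ltbp1, since they were gated on VSMC and fibroblast markers together.

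Tgfbi, the secreted matrix target, was, among the 4 main classes, mainly a transcript of fibroblast-like and macrophage-like cells. Fibroblast-like cells held 101 CPM (94.2 to 109) in the control and 72.4 CPM (66.5 to 78.6) in the case group. Macrophage-like cells held 81.8 CPM (57.6 to 113) and 204 CPM (169 to 243). VSMC-like cells, at 1.76 and 2.39 CPM, stood at 1.74% and 3.30% of the fibroblast-like level, close to the 2.82% and 2.78% at which fibroblast markers were found in them. The part of RNA from other cells in these values was not tested. Endothelial-like cells had 1 and 7 UMIs of it. In macrophage-like cells of the control and case group 17.4% (7.82 to 31.4) and 26.9% (18.7 to 36.5) had a Tgfbi UMI after thinning, against 0.290% and 0.563% of VSMC-like cells. Unthinned shares were 40.4% and 51.4% against 1.72% and 1.21%. Among the 4 main classes, the class with the highest level was the same in both libraries for 7 of the 10 genes, the exceptions being Tgfbr2, Smad3 and Tgfbi.

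**Figure D2:**
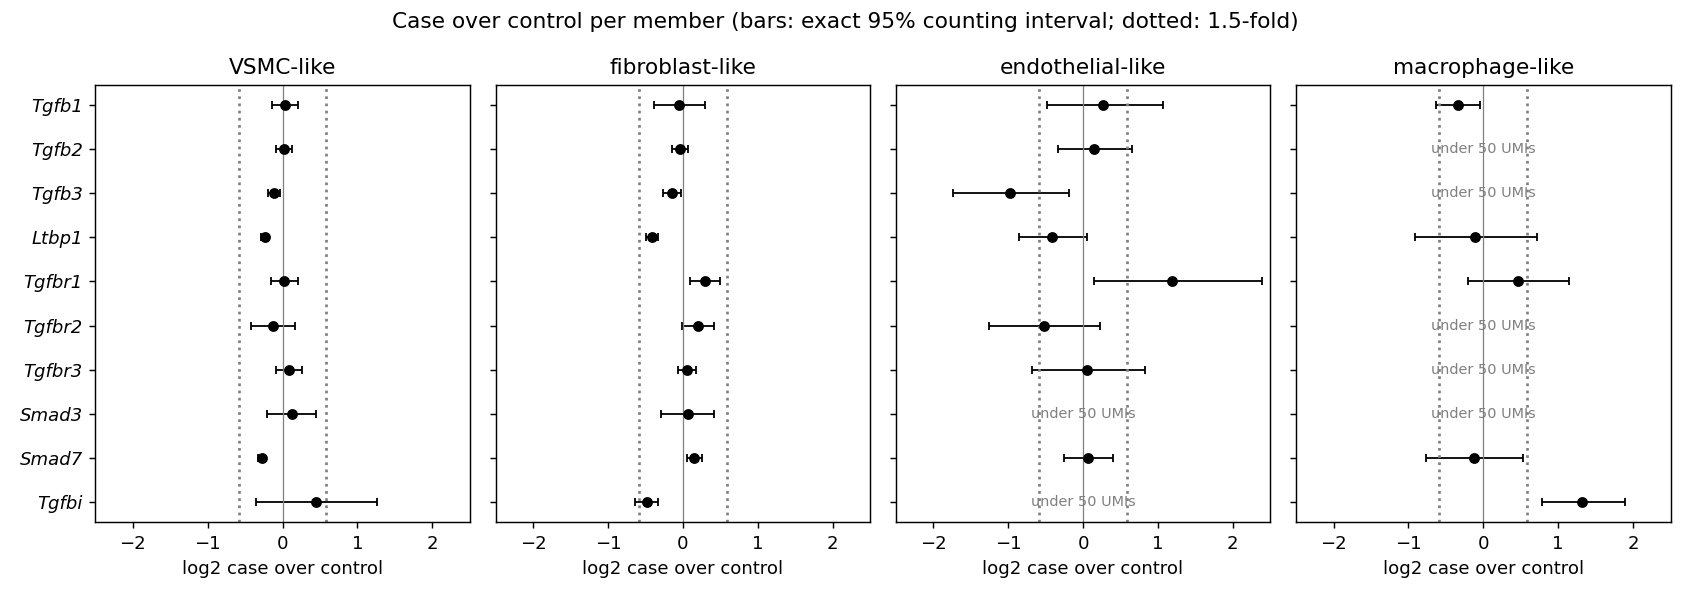
Log2 ratio of case over control for each gene in the 4 main cell classes, as points with exact 95% counting intervals and dotted lines at 1.5-fold. Genes under 50 UMIs have grey text saying so in place of a point. All VSMC-like and fibroblast-like points lie between the dotted lines, and Tgfbi stands at 1.32 in macrophage-like cells.

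The comparison of the stenotic with the normal artery asks whether this pathway differed after injury. In VSMC-like cells all 10 genes had enough UMIs, and 0 were higher and 0 lower by 1.5-fold, while 6.32% of the 10184 genes read in that class were higher and 16.0% lower. Their log2 ratios ran from -0.28 to 0.44 with a median of 0.02, against a median of -0.14 over all genes. Smad7 was 1.21-fold lower in the case group, with a log2 ratio of -0.28 (-0.33 to -0.23). Ltbp1 had a log2 ratio of -0.24 (-0.29 to -0.19). Tgfb3 had one of -0.12 (-0.20 to -0.04), and scaling by the trimmed mean of M-values (TMM), which lifts all ratios of this class by 0.13, turned it to 0.01. Under the same scaling Smad7 was at -0.15 and Ltbp1 at -0.11. Tgfb1, Tgfb2, Tgfbr1, Tgfbr2, Tgfbr3 and Smad3 had intervals that included 0. The highest ratio, that of Tgfbi at 0.44 (-0.36 to 1.26), rested on 23 and 35 UMIs. When cells were clustered rather than gated, different VSMC-like clusters held most cells of the 2 libraries. Among these clusters, 1 had 154 control cells of 1456 and another 85 of 1208, while 2 others had 794 of 954 and 309 of 324.

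Fibroblast-like cells gave a similar count, with 10 genes read and 0 higher and 0 lower by 1.5-fold, beside 6.95% higher and 15.9% lower of 8920 genes. The median log2 ratio was 0.01, against -0.11 over all genes. Tgfbi was 1.40-fold lower in the case group (log2 -0.48, -0.64 to -0.33) and Ltbp1 1.32-fold lower (log2 -0.41, -0.49 to -0.33). On the other side Tgfbr1 was 1.23-fold higher (log2 0.30, 0.10 to 0.50) and Smad7 1.11-fold higher (log2 0.15, 0.05 to 0.26). Tgfb2, the ligand with the highest level over this class as a whole, was within counting error at -0.04 (-0.15 to 0.07). Smad7 thus stood on opposite sides of 0 in VSMC-like and fibroblast-like cells, also with TMM scaling, where its fibroblast-like ratio was 0.23. Here too the libraries filled clusters unequally, with 616 control cells of 1382 in the largest fibroblast-like cluster and 48 of 752 in the next.

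In endothelial-like cells 8 genes were read, of which 1 was higher and 1 lower by 1.5-fold, where 19.1% of 3900 genes were higher and 23.9% lower. Tgfbr1 was 19.1 CPM (8.72 to 36.2) in the control and 43.4 CPM (32.4 to 56.9) in the case group, a 2.28-fold difference (log2 1.19, 0.15 to 2.39) from 9 and 52 UMIs. Tgfb3 was 1.96-fold lower (log2 -0.97, -1.74 to -0.19), from 27 and 35 UMIs. Both shares were no larger than those of all genes in this class. TMM scaling lifts all ratios of endothelial-like cells by 0.25. When cells were clustered, 1 endothelial-like cluster held 54 control cells of 213 and the other 10 of 170. VSMC markers, summed in the gated endothelial-like cells, were at 2013 and 1904 CPM. Leaving out the 4 control and 19 case cells in which VSMC and fibroblast markers held over 0.5% of UMIs left Tgfb3 at 36.3 and 19.5 CPM and Tgfbr1 at 19.4 and 40.1 CPM, both then under 50 UMIs. The mean of single-cell CPM gave Tgfbr1 a log2 ratio of 0.58, and clusters in place of gates gave Tgfb3 one of -0.57, each just under the fold.

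Endothelial-like Tgfbr1 was higher in cells with Plvap, a component of endothelial diaphragms. In the case group, 42 cells with at least 3 Plvap UMIs held 98.5 CPM of Tgfbr1, against 27.4 CPM in 142 cells with none, a log2 difference of 1.84 (0.91 to 2.78). The same Plvap-positive cells had less Tgfb2, 35.8 against 144 CPM (4.01-fold, log2 interval -3.25 to -0.98), and less Smad7, 152 against 277 CPM (log2 -0.86, -1.43 to -0.34). In the control group 4 cells were Plvap-positive, with 0 UMIs of Tgfbr1. Within Plvap-negative cells Tgfbr1 was 23.9 CPM in the control and 27.4 CPM in the case group, from 9 and 21 UMIs, under the minimum of 50. The log2 ratio was 0.20, with an interval (-0.99 to 1.51) that also includes the ratio of the whole class, 1.19. The median depths were 5020 UMIs in Plvap-positive and 4836 UMIs in Plvap-negative case cells.

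Macrophage-like cells held the largest ratio past the fold among the members. Of 5 genes read, 1 was higher and 0 lower by 1.5-fold, where 15.0% of 2665 genes were higher and 13.8% lower. Tgfbi was 2.49-fold higher in the case group (log2 1.32, 0.78 to 1.89), from 37 UMIs in 47 cells and 123 UMIs in 109 cells. Tgfb1 went the other way, 1.27-fold lower (log2 -0.34, -0.63 to -0.05). Leaving out the 4 control and 12 case cells with over 0.5% of VSMC and fibroblast marker UMIs left Tgfbi at 85.5 and 222 CPM, a log2 ratio of 1.38. Fibroblast markers, whose class also holds Tgfbi, summed to 1196 CPM in control and 707 CPM in case macrophage-like cells, and their cell medians were 0 in both. Tgfb2, Tgfb3, Tgfbr2, Tgfbr3 and Smad3 were under 50 UMIs in this class.

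**Figure D3:**
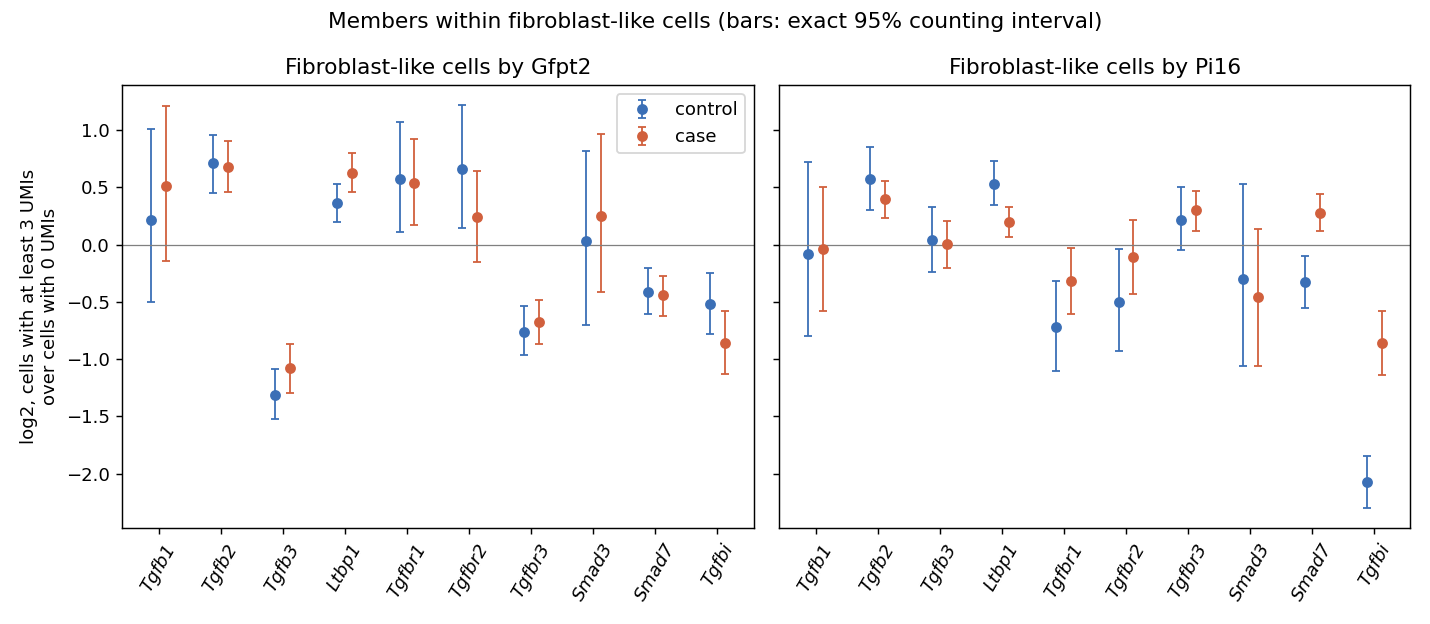
Log2 ratio of each gene between fibroblast-like cells with at least 3 UMIs and those with 0 UMIs of Gfpt2 (left) or Pi16 (right), control in blue and case in orange, with exact 95% counting intervals. By Gfpt2, Tgfb2 lies above 0 and Tgfb3 below 0 in both libraries, and by Pi16, Tgfbi lies at -2.07 in the control and -0.86 in the case group.

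Within fibroblast-like cells the ligands divided the population. Cells were split by Gfpt2, a hexosamine pathway enzyme, into those with at least 3 UMIs (408 control and 753 case cells) and those with 0 (166 and 395), a limit set after the data had been seen. Tgfb2 was 208 against 128 CPM in the control group (log2 0.71, 0.45 to 0.96) and 205 against 128 CPM in the case group (log2 0.68, 0.46 to 0.91). Tgfb3 ran against it, at 101 against 249 CPM (log2 -1.31, -1.52 to -1.09) and 92.9 against 197 CPM (log2 -1.08, -1.30 to -0.87). The cells with Gfpt2 thus had the higher Tgfb2 and the lower Tgfb3, by nearly the same amounts in the normal and the stenotic artery. Ltbp1 followed Tgfb2 here, with 413 against 321 CPM and 341 against 221 CPM. Tgfbr3 did not, with 134 against 226 CPM and 134 against 215 CPM. Gfpt2-positive cells were deeper, with medians of 13114 and 6236 UMIs against 6518 and 3719.

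Pi16, a marker of adventitial fibroblasts, separated Tgfbi. Control cells with at least 3 Pi16 UMIs (542) held 71.5 CPM and those with 0 (95) held 301 CPM, a log2 difference of -2.07 (-2.30 to -1.85). In the case group the values were 52.5 CPM in 538 cells and 95.2 CPM in 645 cells (log2 -0.86, -1.14 to -0.58). The difference between the arteries was larger without Pi16: Tgfbi was 3.16-fold lower in Pi16-negative cells of the case group (log2 -1.66, -1.90 to -1.42) and 1.36-fold lower in Pi16-positive ones (log2 -0.44, -0.71 to -0.19). Pi16-negative cells had median depths of 10389 UMIs in the control and 4669 in the case group, and the part of this gap in who counts as negative was not tested. Ltbp1 in the same split was lower in Pi16-positive case cells (log2 -0.34, -0.45 to -0.24) and level in Pi16-negative ones (log2 -0.01, -0.22 to 0.20). Smad7 had ratios of case over control of opposite sign, with log2 0.26 (0.12 to 0.40) in Pi16-positive and -0.34 (-0.58 to -0.10) in Pi16-negative cells.

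Postn, a matricellular target of TGF-beta, marked another state, with at least 3 UMIs in 145 case and 11 control fibroblast-like cells. These case cells held 485 CPM of Ltbp1 against 260 CPM in the 1148 cells with none (log2 0.90, 0.75 to 1.05). They held less Tgfb3, 58.4 against 135 CPM (log2 -1.21, -1.62 to -0.83), and less Smad7, 116 against 222 CPM (log2 -0.94, -1.22 to -0.67). Tgfb2 was 167 against 183 CPM, within counting error. The median depths were 6592 UMIs in Postn-positive and 4952 UMIs in Postn-negative case cells. In fibroblast-like cells without Postn, Ltbp1 was 382 CPM in the control and 260 CPM in the case group, a log2 ratio of -0.56 (-0.65 to -0.47).

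VSMC-like cells were split in the same way by Spp1 and Notch1. Ltbp1 was higher with Spp1 (osteopontin) in both libraries, at 586 against 454 CPM (log2 0.37, 0.26 to 0.48) in the control and 534 against 405 CPM (log2 0.40, 0.31 to 0.49) in the case group, while Smad7 was at -0.08 (-0.18 to 0.03) and -0.03 (-0.13 to 0.07). Control cells with Spp1 had a median of 13766 UMIs and those without 1318, against 6372 and 4892 in the case group. Tgfb2 was higher with Notch1, at 147 against 91.9 CPM (log2 0.68, 0.47 to 0.89) and 134 against 101 CPM (log2 0.41, 0.09 to 0.72). Cells with Notch1 had median depths of 16252 and 7216 UMIs and those without 8628 and 5243. Smad7 was lower with Notch1 in the case group, at 269 against 402 CPM (log2 -0.58, -0.80 to -0.37), and nearer in the control group, at 421 against 463 CPM (log2 -0.14, -0.25 to -0.02).

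**Figure D4:**
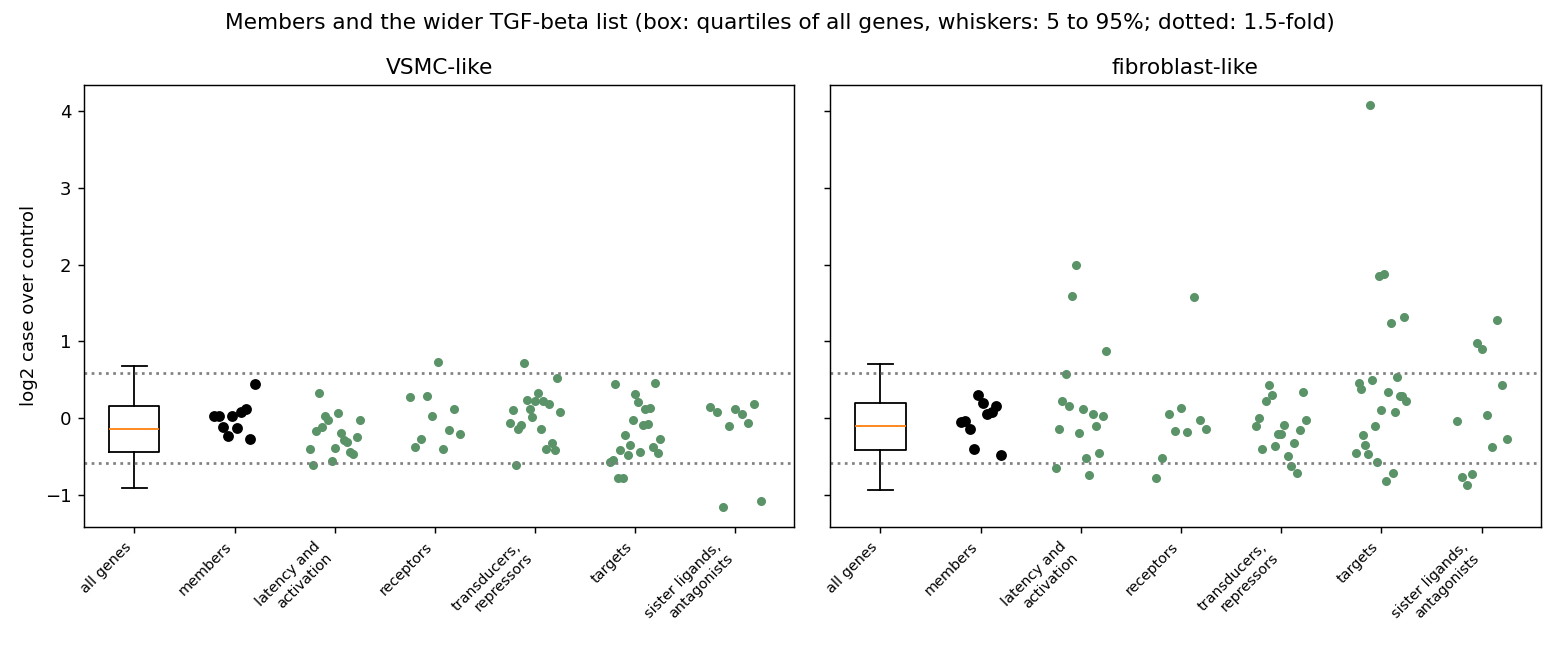
Log2 ratio of case over control for all genes (box with quartiles, whiskers from the 5th to the 95th percentile), the 10 members (black) and the wider TGF-beta list in 5 groups (green), in VSMC-like and fibroblast-like cells, with dotted lines at 1.5-fold. The members lie within the dotted lines in both classes, and the highest green point is Postn at 4.08 in fibroblast-like cells.

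The wider pathway was read from a list of 85 genes, all present in the files. The list was chosen with earlier results of these data known, so its counts beside those of all genes are descriptions only. In VSMC-like cells 76 were read, with 2 higher (Acvr2b and Smad9) and 6 lower (Ltbp3, Smad4, Id1, Id3, Gdf15 and Grem1) by 1.5-fold and a median log2 ratio of -0.10, where 6.32% of all genes were higher and 16.0% lower. The lower genes included Gdf15, a stress-induced family member, at 144 CPM in the control and 64.4 CPM in the case group (log2 -1.16, -1.27 to -1.04). Grem1, a secreted antagonist of bone morphogenetic proteins (BMPs), was at 10.4 and 4.91 CPM (log2 -1.09, -1.52 to -0.66). The BMP-responsive inhibitors Id1 and Id3 were at 528 and 306 CPM (log2 -0.79) and at 2307 and 1341 CPM (log2 -0.78). These 4 genes were the largest ratios of the list in this class with at least 100 UMIs.

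In fibroblast-like cells 76 genes of the list were read, and 12 were higher and 10 lower, with a median of -0.03, where 6.95% of all genes were higher and 15.9% lower. Postn was 17.1 CPM in the control and 289 CPM in the case group, a 16.9-fold difference (log2 4.08, 3.83 to 4.35). Thbs2 and Thbs1 encode thrombospondins, of which the latter activates latent TGF-beta. Thbs2 was at 41.8 and 167 CPM (log2 interval 1.82 to 2.18) and Thbs1 at 13.4 and 40.1 CPM (log2 1.59, 1.26 to 1.92). Grem1 was at 10.5 and 25.4 CPM (log2 1.27, 0.89 to 1.67), opposite in sign to VSMC-like cells. Among the groups of the list, latency and activation had 3 higher and 2 lower of 16 read, receptors 1 and 1 of 9, transducers and repressors 0 and 2 of 17, targets 5 and 2 of 23, and sister ligands and antagonists 3 and 3 of 11. The other higher genes were Aspn, Bmpr1b, Cdkn2b, Snai2, Igfbp3, Tnc, Inhba and Fst, and the lower ones were Ltbp2, Itgb8, Eng, Strap, Tgfb1i1, Junb, Timp1, Bmp4, Gdf10 and Gdf15.

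Endothelial-like cells had 47 genes of the list read, 7 higher and 14 lower, with a median of -0.25, where 19.1% of all genes were higher and 23.9% lower. The median over all genes of this class was -0.08, and TMM scaling lifts all its ratios by 0.25. The repressor Tgif1 was at 33.9 and 115 CPM (log2 1.76, 1.01 to 2.61) and Bmp2 at 23.3 and 75.9 CPM (log2 1.70, 0.80 to 2.76). Id1 was lower here too, at 708 and 255 CPM (log2 -1.48, -1.70 to -1.25), as was Bmp6 at 106 and 43.4 CPM (log2 -1.29, -1.88 to -0.70). Macrophage-like cells had 26 read, 3 higher and 6 lower, with a median of -0.27, where 15.0% of all genes were higher and 13.8% lower. Over all genes of that class the median was -0.01. Timp1, an inhibitor of matrix proteases, was at 61.9 and 152 CPM (log2 1.30, 0.68 to 1.97) and Ccn2, a matricellular target, at 117 and 237 CPM (log2 1.02, 2.02-fold). Id2 was at 274 and 159 CPM (log2 -0.79, -1.18 to -0.39), and Strap at 128 and 77.9 CPM (log2 -0.72, -1.31 to -0.14).

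The genes whose pattern was most like that of a ligand were ranked by the Pearson correlation of log2(CPM + 1) over 12 profiles, 6 classes in each of 2 libraries, among 5094 genes. The profiles share libraries and RNA from abundant cells, so the coefficients are descriptions only. Tgfb1 was closest to Rara (r = 0.97), Ralb (0.95) and Eno1 (0.94). Tgfb2 was closest to Plagl1 (0.97), Alkbh5 (0.96) and Boc (0.95). For Tgfb3 they were Rcn3, Prelp and Ltbp1 (each 0.97), so the latency protein was among the 3 genes nearest to this ligand. Tgfbi was closest to Rarres1 (0.99), Slc16a1 (0.95) and Pltp (0.95).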

How the data were processed

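RNA of single cells was counted on the 10x Genomics platform, with 1 library per group. The deposited values are raw UMI counts, 1 per gene in each barcode, from Cell Ranger 3.1.0 per the study's methods, and the submitters' processing notes name the build Rnor_6.0. Whether libraries were brought to a like depth before deposit is not given in the sources used here. Barcodes were given to groups by their suffix, since the number with each suffix equals the number the study states for that group before quality control. The study gives no limits for its cell filter. Here barcodes were kept with at most 20% mitochondrial UMIs, log10 UMIs and genes within 2 SD of the library mean, and a gene number within 3 robust SD of that expected from a line fitted to UMIs.

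Endothelial-like, macrophage-like, Schwann-like and T-cell-like cells needed at least 3 markers of 1 such type. The marker UMIs of that type had to reach 5 times the level expected from the kept cells of both libraries together. Other cells with at least 0.5% and 10 UMIs of VSMC and fibroblast markers were VSMC-like up to a fibroblast share of 20%, fibroblast-like from 80%, and mixed-marker between. These limits were set after marker counts had been seen, and the members and lists were chosen with earlier results of these data known. Doublets were left in. Scrublet called 1.55% of control and 0.0407% of case cells, a share so low in the case group that the caller did not work there.

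The named genes were all members, in each class the 4 genes of the wider list with the largest log2 ratio and at least 100 UMIs, and the 3 nearest genes of each ligand and of Tgfbi with a mean of at least 20 CPM. Cell states were added afterwards. The ratio and its interval were tried on simulated Poisson counts of summed VSMC-like UMIs, the kind of count that the interval assumes. The cell filter, gates, thinning, cell states and motif search were not tested on simulated data. TMM factors came from edgeR 4.0.16 (R 4.3.3). Everything else used scanpy 1.11.5, leidenalg 0.10.2, scipy 1.17.1, numpy 2.4.6, matplotlib 3.10.9 and pandas 2.3.3 under Python 3.11.15. Random steps used seed 1.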

Additional observations from a re-analysis of the deposited data

Results flagged for a closer look

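Both results below were singled out because the ratio of case over control had opposite signs in 2 cell classes with intervals clear of 0. The intervals cover counting error only (for a difference, by normal approximation), and the difference was not tested over replicates. With genes chosen in this way the interval of a difference could hardly include 0, so it adds nothing to the choice. Smad7 had a log2 ratio of 0.15 (0.05 to 0.26) in fibroblast-like and -0.28 (-0.33 to -0.23) in VSMC-like cells, a difference of 0.43 (0.32 to 0.55). Tgfbi had a log2 ratio of 1.32 (0.78 to 1.89) in macrophage-like and -0.48 (-0.64 to -0.33) in fibroblast-like cells, a difference of 1.80 (1.25 to 2.35).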

How the results depend on the processing

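No paired analysis was possible because each group is 1 library that pools both rats, and the labels carry no replicate numbers.

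The alternatives covered the cell filter, clusters in place of gates, doublets, depth, scaling, weighting of cells, the UMI minimum and the fold limit. Stricter marker gates and the removal of cells with VSMC and fibroblast markers were chosen after seeing the data. VSMC-like and fibroblast-like cells kept a count of 0 members past the fold under each alternative run on them. This leaves out the removal of marker-holding cells, done in endothelial-like and macrophage-like cells alone. A 2-fold limit could not raise a count of 0. Nor could dropping the UMI minimum, as all 10 genes were already read in both classes. The doublet alternative took out 42 control and 2 case cells, so the part of doublets was not tested in the case group. Tgfbi in VSMC-like cells ranged from -0.24 to 0.96 (log2), and its highest value was past the fold but went uncounted because it rested on under 50 UMIs. The count of 7 genes with the same highest class did not move by over 1.5 times. In endothelial-like cells the count of 2 became 1 with Leiden clusters (Tgfbr1), 1 with the mean of single-cell CPM (Tgfb3), 1 with a 2-fold limit (Tgfbr1), 1 without cells holding VSMC and fibroblast markers (Tgfbr2) and 0 after thinning, where both genes had under 50 UMIs. Tgfbr1 there ranged from 0.58 to 1.91 and Tgfb3 from -1.12 to -0.57 (log2). In macrophage-like cells the count of 1 became 4 with no UMI minimum (Tgfb2, Tgfbr3, Smad3 and Tgfbi) and 2 without cells holding VSMC and fibroblast markers (Tgfbr1 and Tgfbi), and Tgfbi ranged from 1.22 to 1.92. Without the same cells the log2 ratio of Tgfb2 went from -1.66 to -0.10. That of Tgfbr3 went from -1.42 to -3.00 and that of Smad3 from 2.28 to 2.17. The cause of these shifts was not tested. Of 330 ratios of single genes under alternatives, 314 stayed within the counting interval and 16 moved out of it. A change of sign was counted only for ratios past the fold in the main setting, which were few, and 0 were counted. Smaller ratios did cross 0, among them Tgfb1 in VSMC-like (log2 -0.23 to 0.16) and Tgfb2 in fibroblast-like cells (-0.08 to 0.08). The total of 330 holds ratios that could not move, since the removal left VSMC-like and fibroblast-like cells, and the stricter gates left endothelial-like and macrophage-like cells, as they were. Tgfbi in fibroblast-like cells came closest to 0 after thinning, at -0.13.

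Endothelial-like, macrophage-like and Schwann-like cells are few, and the counting intervals of most members there include ratios on both sides of 0.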

Other observations

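Mixed-marker and Schwann-like cells also held values of this pathway. In mixed-marker cells, whose median depth was 1359 UMIs in the control and 5384 in the case group, Tgfbi was 41.2 and 23.3 CPM (log2 -0.82, -1.54 to -0.11) and Smad3 was 6.35 and 22.6 CPM from 6 and 31 UMIs. Inhba, which encodes the activin A subunit, was 48.6 and 133 CPM (log2 1.45, 0.97 to 1.95) in the same class. Lrrc32, a cell-surface anchor of latent TGF-beta, was 47.6 and 95.6 CPM (log2 1.01, 0.51 to 1.53). Id1 was 194 and 94.8 CPM (log2 -1.03, -1.36 to -0.70), and Bmp4 was 207 and 112 CPM (log2 -0.88, -1.20 to -0.57).

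In Schwann-like cells Pmepa1, a negative regulator induced by TGF-beta, was 127 CPM in the control and 1002 CPM in the case group (log2 2.98, 2.20 to 3.87), from 22 and 55 cells. Bgn was 345 and 1140 CPM (log2 1.72, 1.23 to 2.25), Id3 1199 and 381 CPM (log2 -1.65, -2.06 to -1.25) and Junb 1426 and 519 CPM (log2 -1.46, -1.82 to -1.10). VSMC markers in these cells summed to 1226 and 3290 CPM and fibroblast markers to 2598 and 3401 CPM, and their part in these values was not tested.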
